A study of Mus musculus with 4 samples.

Results

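The BCL2 family holds the genes that decide whether a cell keeps or loses its mitochondrial outer membrane, the step that commits it to apoptosis. The data described here are the levels of 10 of these genes in intestinal crypts of mice with and without CREPT in the epithelium. The 10 members are the BCL2 family survival and death genes that are not counted among the classical targets of p53. They were chosen by name: Bcl2, Bcl2l1, Bcl2l2 and Mcl1 (survival genes), Bak1 (an effector of membrane permeabilisation), and Bcl2l11, Bid, Bad, Bik and Bmf (genes for BH3-only proteins, which set death in motion). All 10 were found in the count table of 53845 rows, and all 10 were among the 17504 genes with enough counts to be tested.

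RNA was sequenced from crypts of untreated C57BL/6 mice, in 2 wildtype (WT) libraries and 2 Vil-CREPTKO libraries. In Vil-CREPTKO mice a villin-cre transgene, active in the intestinal epithelium, acts on a CREPT gene (Rprd1b) with floxed alleles, so lymphocytes and connective tissue cells keep CREPT. The breeding scheme of the study crossed Villin-cre; CREPT fl/fl with CREPT fl/fl mice, but whether the WT libraries carried floxed alleles is not given in the sources used here. Mice of both sexes, 6 to 8 weeks old, were used. The 2 libraries of a genotype stand for 2 mice in the study's legends, while the labels name no animal, so p-values measure the spread between these libraries.

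In this pathway the survival proteins hold the effectors in check. BCL2, BCL-XL (from Bcl2l1), BCL-W (from Bcl2l2) and MCL1 bind the effectors BAK and BAX and the BH3-only proteins in a groove. BIM (from Bcl2l11), BID, BAD, BIK and BMF fill that groove, but not each of them in every survival protein. BIM and cleaved BID also activate the effectors directly. Activated BAK and BAX open the outer membrane, cytochrome c leaves, and the apoptosome switches on caspases. Crypts of the small intestine are known for ready p53-dependent death after irradiation, and MCL1 and BCL-XL are known survival factors of the intestinal epithelium. Much of the control of these proteins (phosphorylation of BAD, cleavage of BID, rapid turnover of MCL1) happens after transcription and is not seen in RNA counts.

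The libraries held 47241049 to 49369315 counts, and the limit set by a gene with no counts (3 counts) lay between 0.0588 and 0.069 CPM (counts divided by the TMM-scaled library size, the CPM unit used throughout). Mitochondrial genes took 10.2% of the counts in Vil-CREPTKO replicate 1 against 6.75% to 7.62% in the other libraries. Sex differed within the WT group: WT replicate 2 expressed Xist (863 CPM) without a count of the 4 Y-linked genes examined, and the other 3 libraries had counts of Y-linked genes and 0.299 to 0.529 CPM of Xist. Rprd1b counts were 3087 and 3030 for WT and 1142 and 1424 for Vil-CREPTKO, with a log2 fold change of -1.14 (SE 0.12, adjusted p 0.0041 by edgeR). Epithelium markers summed to 7192 and 8258 CPM for WT and 7691 and 7267 for Vil-CREPTKO. Enterocyte markers reached 20920 CPM in Vil-CREPTKO replicate 1 and 11410 to 14850 CPM elsewhere, while crypt base stem cell markers were at 1205 CPM in that library and 1443 to 1842 CPM elsewhere. The crypt base sum was mostly Olfm4, at 1127 CPM in that library and 1338 to 1721 CPM elsewhere. Lgr5 and Smoc2 were also lowest there, but Ascl2 (9.27 CPM) was within the range of the other libraries. Of the enterocyte markers, Apoa4 (815 CPM) was within that range as well. The part of these shifts in the members' values was not tested. The 12 immune cell markers, of which 10 had a negative log2 fold change and 0 passed an adjusted p of 0.05, summed to 1246 and 1347 CPM for WT and 876 and 779 for Vil-CREPTKO. Cd74 and Gzma made up most of these sums. Cd74 stood at 334 and 632 CPM for WT and 204 and 209 for Vil-CREPTKO, and Gzma at 442 and 355 against 317 and 277 CPM. The 7 stromal cell markers summed to 27.0 CPM in Vil-CREPTKO replicate 1 and to 9.67 to 15.0 CPM in the other libraries, and the 4 smooth muscle markers summed to 0.570 to 0.752 CPM, with Acta2 and Myh11 at no more than 2 counts per library, Des at 1 to 10 counts and Tagln at 20 to 33 counts.

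To give the members their genomic context, the 250 bases before the transcription start were taken from RefSeq (GRCm38.p6), which listed a window for 9 of the 10 genes. Of these windows, 6 held the GC box GGGCGG on either strand, a motif found in 32.7% of all 32851 windows of that length. The CCAAT box was in 2, with 33.8% of all windows holding it, and the TATA box TATAAA in 0, with 12.4% of all windows holding it. The median number of CpG dinucleotides was 18 in the members and 6 in all windows. For a member the window nearest the annotated gene start was taken, while the background held every listed window of every gene. The shares are therefore not like for like and are not read as traits of the family. Windows are printed below for the most abundant survival gene (Mcl1, chr3:95658471-95658720, plus strand), for the member with the smallest p (Bad, chr19:6941611-6941860, plus strand) and for the member with the largest decrease in its fitted value (Bmf, chr2:118549687-118549936, minus strand). They read 5′ to 3′ on the strand of the gene, and capitals mark GC boxes.
Mcl1: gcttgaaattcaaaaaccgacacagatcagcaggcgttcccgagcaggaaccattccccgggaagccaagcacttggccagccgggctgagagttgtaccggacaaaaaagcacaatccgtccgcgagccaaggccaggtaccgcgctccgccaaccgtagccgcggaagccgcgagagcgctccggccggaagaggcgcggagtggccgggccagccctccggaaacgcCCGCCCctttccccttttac
Bad: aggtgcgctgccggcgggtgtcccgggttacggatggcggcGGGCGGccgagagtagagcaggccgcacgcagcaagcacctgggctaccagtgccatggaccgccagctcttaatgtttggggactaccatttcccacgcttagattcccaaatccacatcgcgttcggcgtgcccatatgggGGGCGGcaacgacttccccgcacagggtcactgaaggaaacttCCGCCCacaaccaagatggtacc
Bmf: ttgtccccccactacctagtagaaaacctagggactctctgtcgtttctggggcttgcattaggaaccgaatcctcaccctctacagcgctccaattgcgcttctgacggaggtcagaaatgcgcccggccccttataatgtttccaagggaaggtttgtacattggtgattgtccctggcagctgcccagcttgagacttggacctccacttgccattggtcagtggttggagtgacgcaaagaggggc
The Bad window held 3 GC boxes and 21 CpG dinucleotides, that of Mcl1 held 1 and 26, and that of Bmf held 0 and 8, with 3 copies of the CCAAT box. These matches describe the letters of the windows and were not tied to any change.

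Whether the members changed with loss of CREPT was asked first. By edgeR's quasi-likelihood test, 0 of the 10 members passed an adjusted p of 0.05, where the background was 2.71% of the 17504 genes (2.29% lower and 0.423% higher). With an absolute log2 fold change over 1 required as well, the count was again 0, beside 1.64% of all genes (1.34% lower and 0.297% higher). With DESeq2, which gave Bik no adjusted p, the count was 0 as well. A single member, Bad, had an unadjusted p under 0.05, against 14.3% of all genes (9.76% lower and 4.49% higher). That count was 0 with DESeq2, with the GC and length correction, and when replicate 2 of either genotype was left out. The log2 fold changes of the members ran from -0.52 in Bmf to 0.20 in Bid, with 6 negative and 4 positive values, where 50.9% of all genes were negative. Their median was -0.13, beside -0.006 for all genes, and the median of their absolute values was 0.19, beside 0.22 for all genes. For 8 of the 10 members the 95% interval of the log2 fold change lay between -1 and 1, so a doubling or a halving was outside it. Bmf, whose interval reached -1.08, and Bik, which was near the floor, were the exceptions. The share of all genes with an interval between -1 and 1 was not computed, so this count is not read as a trait of the members.

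**Figure D1:**
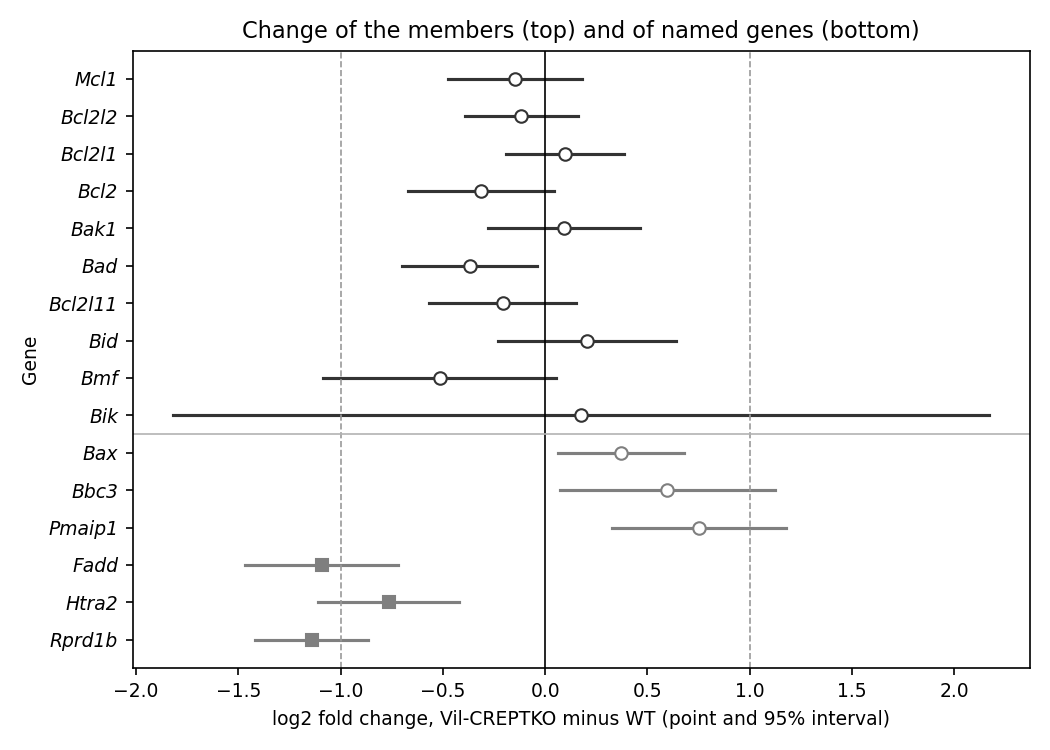
Log2 fold change (Vil-CREPTKO minus WT, x axis) with its 95% interval for the 10 members (black) and 6 named genes (grey), where filled squares had an adjusted p under 0.05 and dashed lines stand at -1 and 1. The members lie between -0.52 and 0.20 with open symbols, and the filled squares belong to Fadd, Htra2 and Rprd1b.

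The survival genes were described next, with gene positions from the GENCODE annotation of GRCm38. Mcl1 (ENSMUSG00000038612, chromosome 3, 95658788 to 95663176, plus strand), whose product is a short-lived guardian of BAK, had 12013 and 12864 counts for WT and 9993 and 10721 for Vil-CREPTKO. This was 235 and 261 CPM for WT and 230 and 218 for Vil-CREPTKO. Both WT libraries lay above both Vil-CREPTKO libraries, but the nearest pair was closer together than the WT libraries were to each other. The log2 fold change was -0.15 (SE 0.14, 95% interval -0.48 to 0.18, adjusted p by edgeR 0.72).

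Bcl2 (ENSMUSG00000057329, chromosome 1, 106538178 to 106714274, minus strand), the founding survival gene of the family, stood at 23.1 and 20.1 CPM for WT and at 18.6 and 16.1 for Vil-CREPTKO. The groups did not overlap, and Vil-CREPTKO stood at 80.4% of WT. Its log2 fold change of -0.31 (SE 0.16, 95% interval -0.67 to 0.041, adjusted p by edgeR 0.419) did not pass the test. Bcl2 is expressed in lymphocytes as well as in epithelium, and Ptprc, the pan-leukocyte gene, stood at 77.8 and 55.9 CPM for WT and 58.2 and 45.3 for Vil-CREPTKO. Cd8a, a marker of intraepithelial T cells, stood at 91.0 and 64.2 CPM for WT and 62.2 and 51.7 for Vil-CREPTKO. The groups overlapped in Ptprc and not in Cd8a. They also overlapped in Cd3e, Cd3g, Cd8b1, Itgae, Cd79a, Ms4a1 and Cd68, but not in Gzma, Gzmb and Cd74. Of the 12 immune cell markers 10 had a negative log2 fold change, while Cd79a (0.25) and Cd68 (0.32) were positive. The part of lymphocytes in the Bcl2 values was not tested, and fewer cells of a type cannot be told apart from less RNA per cell in bulk crypts.

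Bcl2l1 (ENSMUSG00000007659, chromosome 2, 152780668 to 152831728, minus strand) stood at 43.0 and 44.5 CPM for WT and at 50.4 and 43.2 for Vil-CREPTKO. Vil-CREPTKO replicate 1 was above the other 3 libraries, which lay close together. The log2 fold change was 0.097 (SE 0.13, 95% interval -0.19 to 0.39, adjusted p by edgeR 0.805). Bcl2l2 (ENSMUSG00000089682, chromosome 14, 54883377 to 54888234, plus strand), which encodes BCL-W, was at 44.3 and 47.01 CPM for WT and at 44.2 and 40.1 for Vil-CREPTKO. WT replicate 1 and Vil-CREPTKO replicate 1 were nearly level, and the log2 fold change was -0.12 (SE 0.12, 95% interval -0.39 to 0.16, adjusted p by edgeR 0.74). Gm20521, annotated on the same strand with 594 bp of exon in common with Bcl2l2, had 0 counts in every library.

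**Figure D2:**
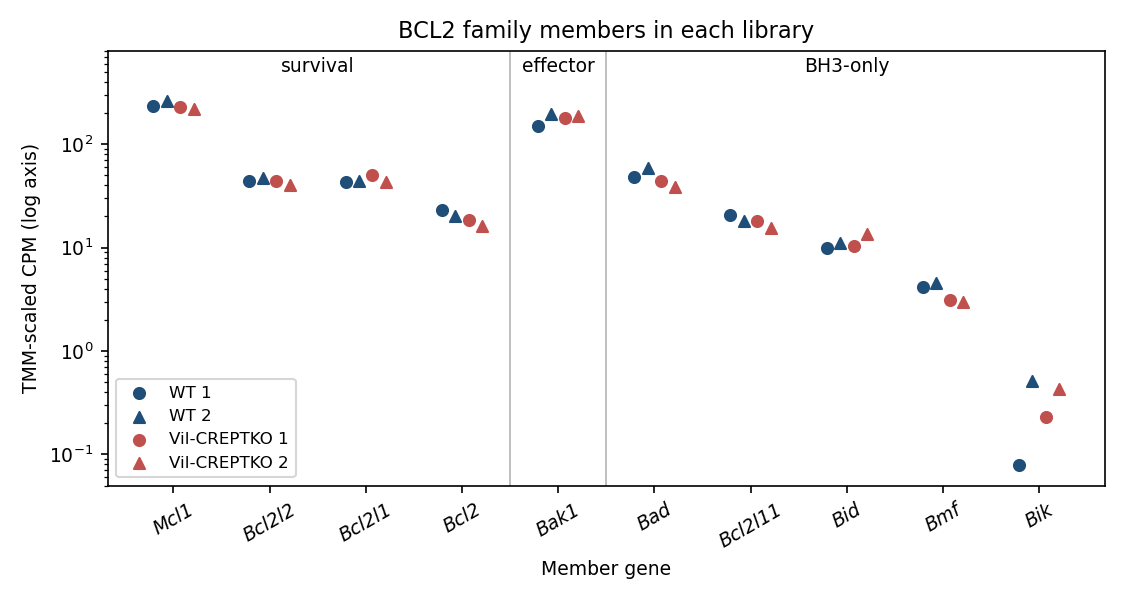
TMM-scaled CPM (log axis) of each member in the 2 WT (blue) and 2 Vil-CREPTKO (red) libraries, with circles for replicate 1 and triangles for replicate 2 and the members ordered by role. Mcl1 and Bak1 stand above 100 CPM in every library, and in Bik the libraries of the groups are interleaved below 1 CPM.

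Bak1 (ENSMUSG00000057789, chromosome 17, 27019810 to 27029009, minus strand), the effector among the members, had 150 and 196 CPM for WT and 180 and 189 for Vil-CREPTKO. Both Vil-CREPTKO libraries lay between the WT libraries, and the log2 fold change of 0.093 (SE 0.16, 95% interval -0.28 to 0.46, adjusted p by edgeR 0.865) was within their spread. Ggnbp1 lies on the opposite strand with 437 bp of exon shared with Bak1, and its 105 to 134 counts were few beside the 7643 to 9657 counts of Bak1.

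Among the BH3-only genes, Bad (ENSMUSG00000024959, chromosome 19, 6941861 to 6951899, plus strand) came closest to the threshold. BAD is the family's link to growth factor signalling, held inactive by AKT phosphorylation. It had 2446 and 2910 counts for WT and 1934 and 1888 for Vil-CREPTKO, or 47.9 and 59.1 CPM against 44.5 and 38.5 CPM. The groups did not overlap, and the means were 53.5 ± 7.93 CPM for WT and 41.5 ± 4.28 CPM for Vil-CREPTKO (SD, n = 2). The log2 fold change was -0.37 (SE 0.15, 95% interval -0.70 to -0.038, edgeR p 0.0329, adjusted p 0.284). Over the alternatives tried the adjusted p of Bad ran from 0.154 to 0.771, and without WT replicate 2 the log2 fold change was -0.21. Gpr137 lies on the opposite strand with 524 bp of exon in common with Bad and had 1146 and 1045 counts for WT and 1268 and 1025 for Vil-CREPTKO. Since the strand setting of the counting was not stated, reads of the shared stretch may have gone to either gene.

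Bmf (ENSMUSG00000040093, chromosome 2, 118528757 to 118549687, minus strand), whose product is tethered to the actin cytoskeleton and released on loss of attachment, had 212 and 222 counts for WT and 135 and 145 for Vil-CREPTKO. At 4.15 and 4.51 CPM for WT and 3.11 and 2.95 for Vil-CREPTKO, the groups were further apart than the libraries of either group. Vil-CREPTKO stood at 69.9% of WT. A log2 fold change of -0.52 (SE 0.25, 95% interval -1.08 to 0.053, adjusted p by edgeR 0.403) did not pass the test, and over the alternatives its adjusted p ran from 0.395 to 0.722.

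Bcl2l11 (ENSMUSG00000027381, chromosome 2, 128126038 to 128162547, plus strand), which encodes BIM, was at 20.6 and 18.2 CPM for WT and at 18.1 and 15.5 for Vil-CREPTKO. WT replicate 2 and Vil-CREPTKO replicate 1 were nearly level, and the log2 fold change was -0.21 (SE 0.16, 95% interval -0.57 to 0.15, adjusted p by edgeR 0.632). Bid (ENSMUSG00000004446, chromosome 6, 120891930 to 120916853, minus strand), the caspase-8 substrate that joins the death receptor pathway to mitochondria, was at 9.89 and 10.97 CPM for WT and at 10.4 and 13.6 for Vil-CREPTKO. Vil-CREPTKO replicate 2 alone was high, and the log2 fold change of 0.20 (SE 0.19, 95% interval -0.23 to 0.64, adjusted p by edgeR 0.704) was 0.004 without it. Bcl2l13, a mitochondrial relative of the family, lies on the opposite strand with 628 bp of exon in common with Bid and had 2278 to 3247 counts against the 453 to 668 counts of Bid. Reads of the shared stretch may likewise have gone to either gene, and their part in the Bid values was not tested.

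Bik (ENSMUSG00000016758, chromosome 15, 83526862 to 83544634, plus strand), which acts at the endoplasmic reticulum, had 4 and 25 counts for WT and 10 and 21 for Vil-CREPTKO. WT replicate 1 was lowest and WT replicate 2 highest, at 0.0784 and 0.508 CPM, with the Vil-CREPTKO libraries between them. Its log2 fold change of 0.18 (SE 0.88, 95% interval -1.82 to 2.17) was not distinguishable from the spread, and its interval held large changes in either direction.

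Of the 10 members, 6 had groups that did not overlap in CPM, all lower in Vil-CREPTKO, and 0 did not overlap with higher values. The shares among all genes tested were 24.2% lower and 21% higher, or 45.1% in either direction. These 6 were Bcl2, Bcl2l2, Mcl1, Bcl2l11, Bad and Bmf. The count was not tested, since the members share the same 4 libraries. With RLE scaling it was 4 lower, beside 23% of all genes. With upper-quartile scaling it was 4 lower and 1 higher, beside 21.9% of all genes lower and 24.8% higher.

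**Figure D3:**
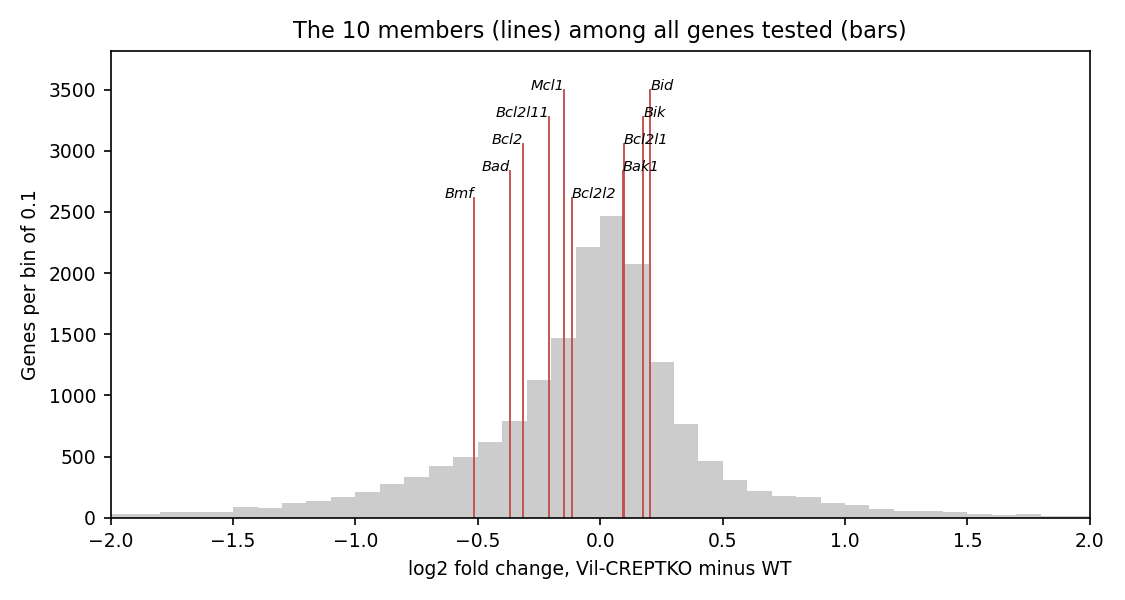
Histogram of the log2 fold change (Vil-CREPTKO minus WT, x axis from -2 to 2, genes beyond not drawn) of all genes tested in bins of 0.1 (grey bars), with a red line at the value of each member. The members lie between -0.52 and 0.20, inside the main body of the distribution, with 6 left and 4 right of 0.

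To compare the members with each other, levels were divided by the length of the merged exons of each gene. Mcl1 and Bak1 stood at the top in WT, at 72.7 ± 5.39 and 71.9 ± 13.7 CPM per kb (SD, n = 2), and did not differ beyond their spread. In Vil-CREPTKO Bak1 stood above Mcl1, at 76.6 ± 2.69 against 65.6 ± 2.4 CPM per kb (SD, n = 2), and both Bak1 values were above both Mcl1 values. Bad followed at 20.9 ± 3.1 CPM per kb. Bcl2l2 (10.2 ± 0.426) and Bcl2l1 (9.54 ± 0.225) came next in CPM per kb, and they changed places in Vil-CREPTKO, where the means of 9.44 ± 0.643 and 10.2 ± 1.11 lay within their spread. With the length of the longest coding transcript instead, Bcl2l1 was above Bcl2l2 in both groups, at 17.0 against 12.0 CPM per kb in WT and 18.2 against 11.1 CPM per kb in Vil-CREPTKO. Bid (2.94 ± 0.215), Bcl2l11 (2.42 ± 0.206) and Bcl2 (2.36 ± 0.23) formed a low group in CPM per kb in WT, the last pair within their spread. Bmf (0.825 ± 0.0482) and Bik (0.184 ± 0.191) stood at the bottom. Per length, the crypts thus held more RNA of Mcl1 than of the other survival genes together: Mcl1 made up 75.9% and 77.3% of the summed survival level in WT and 74.6% and 76.0% in Vil-CREPTKO.

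Bcl2l1, the gene of BCL-XL, made up 10.3% and 9.81% of that sum in WT and 12.2% and 11.2% in Vil-CREPTKO. By coding transcript length its share was 16.7% and 15.9% for WT and 19.4% and 18.0% for Vil-CREPTKO. Bad made up 75.2% and 77.9% of the summed BH3-only level in WT and 74.6% and 69.5% in Vil-CREPTKO. Bid, by contrast, made up 11.2% and 10.4% of it in WT and 12.6% and 17.7% in Vil-CREPTKO. These shares moved by a few percentage points between the groups, and that of Bid moved mainly in Vil-CREPTKO replicate 2.

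Summed by role, the survival genes reached 90.7 and 98.9 CPM per kb in WT and 90.2 and 84.0 CPM per kb in Vil-CREPTKO. The BH3-only genes reached 24.9 and 29.7 CPM per kb in WT and 23.3 and 21.6 CPM per kb in Vil-CREPTKO. Both sums were lower in both Vil-CREPTKO libraries, from a mean of 94.8 ± 5.81 to 87.1 ± 4.35 CPM per kb for survival and from 27.3 ± 3.35 to 22.5 ± 1.2 CPM per kb for BH3-only genes (SD, n = 2). The ratio of the sums was higher in both Vil-CREPTKO libraries than in both WT libraries. It was 3.64 and 3.34 for WT and 3.87 and 3.89 for Vil-CREPTKO. With the length of the longest coding transcript in place of the merged exons, the survival sums overlapped (100.4 and 108.9 CPM per kb for WT, 101.1 and 93.5 for Vil-CREPTKO), and the mean ratio was 2.35 in WT and 2.64 in Vil-CREPTKO. The ratio rests on Mcl1 above and Bad below and was not tested. It compares summed RNA levels and gives no measure of binding between the proteins.

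**Figure D4:**
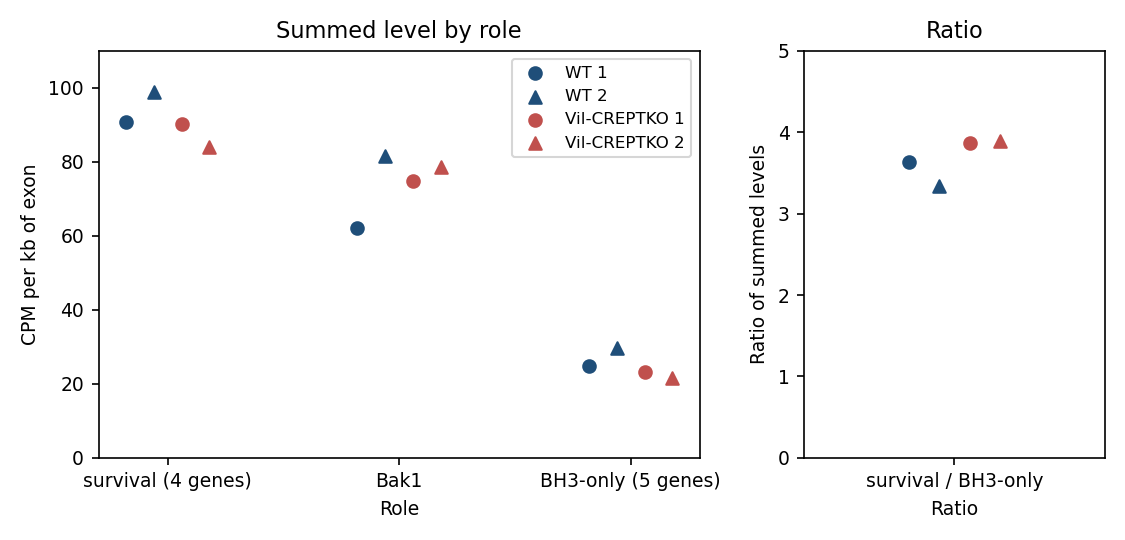
Left, summed level in CPM per kb of exon of the 4 survival genes, of Bak1 and of the 5 BH3-only genes in each library; right, the ratio of the survival to the BH3-only sum. WT is blue and Vil-CREPTKO red, with circles for replicate 1 and triangles for replicate 2, and the ratio lies between 3.34 and 3.89 in the 4 libraries.

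Bax, Bbc3 (PUMA) and Pmaip1 (NOXA), the family genes driven by p53, had log2 fold changes of 0.37 (SE 0.14), 0.60 (SE 0.23) and 0.75 (SE 0.19), with edgeR adjusted p-values of 0.24, 0.271 and 0.0826. In all 3 the groups did not overlap and Vil-CREPTKO was higher, beside 21% of all genes. All 3 also had an unadjusted edgeR p under 0.05, beside 4.49% of all genes higher at that level. Pmaip1 (72.8 and 54.9 CPM in WT against 125 and 90.4 CPM) had an adjusted p of 0.00503 with DESeq2, but by edgeR 0.290 without WT replicate 2 (log2 fold change 0.56) and 0.254 without Vil-CREPTKO replicate 1 (0.50). The difference between these genes and the 10 members was not tested.

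The remaining BCL2 family genes were read as a list of 12, of which 9 were tested. By edgeR 0 of the 9 had an adjusted p under 0.05 and 0 had an unadjusted p under 0.05, with 5 negative and 4 positive values and a median of -0.13. Bnip3l, a receptor for mitophagy, was at 53.1 and 52.8 CPM for WT and 65.1 and 60.8 for Vil-CREPTKO (0.25, adjusted p by edgeR 0.374). Bcl2l14 stood at 44.8 and 52.5 CPM for WT and 38.3 and 41.7 for Vil-CREPTKO (-0.28, adjusted p by edgeR 0.382). Bok, an effector-like relative, had a log2 fold change of -0.34 (edgeR adjusted p 0.656), with Vil-CREPTKO replicate 1 at 3.57 CPM and the other 3 libraries at 5.82 to 6.24 CPM. Hrk, Bcl2l10 and Bcl2a1a, which were not tested, had at most 5 counts in any library.

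Downstream of the members lie the apoptosome and the caspases. Of 13 genes tested there, 1 was lower and 0 were higher at an adjusted p of 0.05, beside 2.29% of all genes lower and 0.423% higher, and the list had a median of -0.017. The lower gene was Htra2 (ENSMUSG00000068329, chromosome 6, 83051266 to 83055273, minus strand), which encodes a mitochondrial serine protease released with cytochrome c that blocks inhibitors of apoptosis and also keeps mitochondria in order. Its level fell from 25.8 and 22.2 CPM (mean 24.0 ± 2.57, SD, n = 2) to 13.9 and 14.4 CPM (mean 14.1 ± 0.325, SD, n = 2) in the knockout. This was a log2 fold change of -0.77 (SE 0.15, adjusted p by edgeR 0.0364). The adjusted p rose over 0.05 with upper-quartile scaling (0.0597), after correction for GC content and length (0.0811), and without WT replicate 1 (0.133), Vil-CREPTKO replicate 1 (0.121) or Vil-CREPTKO replicate 2 (0.0855). Aup1 shares 753 bp of exon with Htra2 on the opposite strand and had 4424 and 4256 counts for WT and 3216 and 3546 for Vil-CREPTKO, beside 1319 and 1093 against 604 and 705 counts of Htra2. The part of Aup1 reads in the Htra2 counts was not tested.

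Upstream of Bid lies the death receptor pathway, where 1 of 9 genes was lower and 0 were higher at an adjusted p of 0.05. The shares of all genes were 2.29% lower and 0.423% higher. The list median was 0.034, beside -0.006 for all genes. The lower gene was Fadd (ENSMUSG00000031077, chromosome 7, 144577318 to 144582463, minus strand), the adaptor that joins death receptors to caspase-8. Fadd had 1077 and 1230 counts for WT and 439 and 564 for Vil-CREPTKO, or 21.1 and 25.0 CPM against 10.1 and 11.5 CPM. Both Vil-CREPTKO libraries were far below both WT libraries, and the mean fell from 23.0 ± 2.75 to 10.8 ± 0.979 CPM (SD, n = 2), or 46.8% of WT. Fadd thus had a log2 fold change of -1.09 (SE 0.16, adjusted p by edgeR 0.0121), and its adjusted p was at most 0.0457 over the 13 alternatives. Casp8, the caspase that it recruits, was at 70.5 and 82.4 CPM for WT and 92.2 and 79.9 for Vil-CREPTKO and did not pass the test. An antisense gene, Faddos, with 239 bp of exon in common with Fadd, had at most 6 counts in any library.

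Of the 5 inhibitors of apoptosis 0 passed by edgeR, also at an unadjusted p of 0.05, and their log2 fold changes ran from 0.043 to 0.19. Xiap, which binds active caspases, had 111 and 117 CPM for WT and 141 and 119 for Vil-CREPTKO (0.19, adjusted p by edgeR 0.604). Birc2 (0.091) and Birc3 (0.091) had adjusted p-values of 0.803 and 0.834, and both turned negative under library-size scaling. The list of partners and turnover factors of the members had 13 genes, with a median of 0.085, of which 0 passed at an adjusted p of 0.05. An unadjusted edgeR p under 0.05 was reached by 1, Bag3, which was lower, beside 9.76% of all genes lower at that level. Bag3, a co-chaperone that binds BCL2, was at 47.9 and 42.6 CPM for WT and 35.9 and 35.4 for Vil-CREPTKO (-0.34, adjusted p by edgeR 0.234). Dynll1, the dynein light chain that sequesters BIM, was at 66.6 and 52.3 CPM for WT and 83.1 and 67.5 for Vil-CREPTKO (0.34, adjusted p by edgeR 0.378). Vdac2, the outer membrane channel that holds BAK, was at 411 and 462 CPM for WT and 580 and 470 for Vil-CREPTKO (0.27, adjusted p by edgeR 0.573). With DESeq2, 2 genes of the 6 pathway lists were lower and 1, Pmaip1, was higher.

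Since 2 libraries make a group, each library was left out in turn, with the lone library of a group assumed to vary like the other group. In these 4 fits the median log2 fold change of the members stayed between -0.19 and -0.072. Bcl2, Bcl2l2, Mcl1, Bcl2l11, Bad and Bmf were negative in every one of them, whereas Bcl2l1, Bak1 and Bik changed sign. The negative genes are those whose groups did not overlap, so their sign could hardly turn and adds no separate support. Without WT replicate 2, the fit in which the libraries shared 1 sex, Bcl2 was at -0.41 and Bmf at -0.45, Bad at -0.21 and Bak1 at 0.30. Without Vil-CREPTKO replicate 1, the library with the highest mitochondrial share, Bad was at -0.48, Bmf at -0.56 and Bcl2 at -0.42. Bik ran from -0.62 to 2.04.

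**Figure D5:**
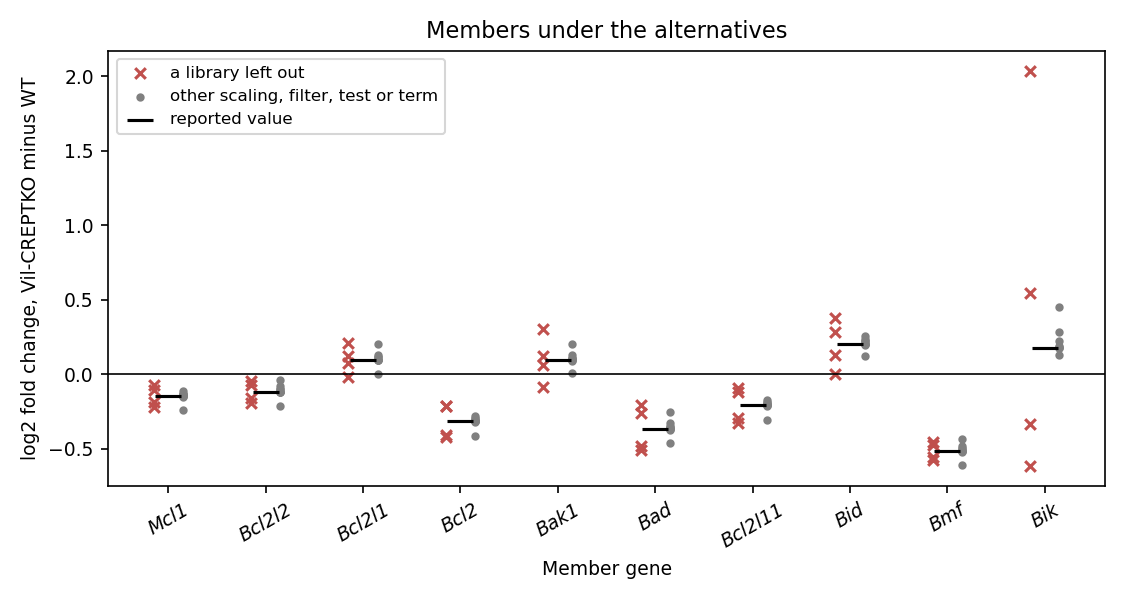
Log2 fold change (Vil-CREPTKO minus WT, y axis) of each member as reported (black dash), with 1 library left out (red crosses) and with another scaling, filter, test or model term (grey points). Bmf, Bad and Bcl2 stay below 0 throughout, Bcl2l1 and Bak1 straddle 0, and Bik spans -0.62 to 2.04.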

How the data were processed

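RNA-seq libraries of 2 WT and 2 Vil-CREPTKO crypt samples were analysed. The authors deposited whole-number read counts per gene, not normalized. The study's methods give mapping of clean reads to GRCm38.p6 transcripts with Bowtie2 and estimation with RSEM, and the submitters' processing notes also name CASAVA 1.8. Strand setting, annotation and the other versions are not given in the sources used here. Identifiers were matched to GENCODE release M21 (53360 of 53845 rows, 99.1%), and 380 unnamed loci were kept. The libraries of a group differed by 49.8 (WT) and 70.1 (Vil-CREPTKO) chi-square units per gene, so none was a repeat deposit.

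Counts were analysed with edgeR 4.0.16 (filterByExpr, TMM, quasi-likelihood test with the group as the only term, two-sided) in R 4.3.3, with Benjamini-Hochberg adjustment over the 17504 genes tested. The common biological coefficient of variation was 0.188. SE was the log2 fold change over the square root of F, and 95% intervals, which are not adjusted, used the test's degrees of freedom. CPM used TMM-scaled totals. An exact permutation test of 2 against 2 cannot go below 0.333 and was not used. Alternatives were DESeq2 1.42.0, other scalings and filters, a likelihood ratio test, a replicate term, a GC and length correction, and each library left out. The members and lists were chosen with earlier results of these data known. Named were all members, Rprd1b, list genes with an adjusted p under 0.05 or otherwise the 3 smallest p-values of a list, and genes overlapping a member. Marker genes, Casp8, the neighbours of Htra2 and Fadd, and Hrk, Bcl2l10 and Bcl2a1a were named after their values were seen.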

Additional observations from a re-analysis of the deposited data

How the results depend on the processing

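The count of 0 members at an adjusted p under 0.05 was the same in either direction under the alternatives that kept all 4 libraries. Those alternatives called 296 to 908 of all genes lower and 62 to 325 higher, among 15564 to 28324 genes fitted. With 2.71% of all genes called in the main fit, 0 of 10 lies near the background and is no trait of the members. At 4 to 25 counts, depth limited what Bik could show. Signs turned in Bcl2l1 (-0.00035 with library-size scaling, -0.022 to 0.21 with a library left out), Bik (-0.62 to 2.04 with a library left out, -0.33 without Vil-CREPTKO replicate 2), Bak1 (-0.089 to 0.30 with a library left out), Birc2 (-0.0051 with library-size scaling) and Birc3 (-0.0058 with library-size scaling, -0.031 to 0.21 with a library left out), and the cause was not tested. Bik was not fitted with at least 10 counts in every library. Library-size scaling moved the median of the members from -0.13 to -0.23 while it moved that of all genes from -0.006 to -0.098, and leaving out a library gave -0.19 to -0.072. The count of members without overlap was examined after seeing the data. Under library-size scaling it was 6 lower and 0 higher, beside 29.8% of all genes lower and 11.8% higher. Under RLE scaling it was 4 lower and 0 higher, beside 23% of all genes lower and 22.7% higher. Upper-quartile scaling gave 4 lower and 1 higher, beside 21.9% of all genes lower and 24.8% higher.

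Pathway list genes at an adjusted p under 0.05 numbered 2 lower and 0 higher. Upper-quartile scaling and the GC and length correction left 1 lower, and leaving out a library gave 1 to 2 lower and 0 to 1 higher. Pmaip1 was the 1 higher gene with DESeq2, without a filter, with the replicate block and with the likelihood ratio test. Of all genes 400 were lower and 74 higher, against 625 and 183 with DESeq2, 908 and 325 without a filter, and 743 and 222 with the likelihood ratio test and 248 to 371 and 51 to 130 with a library left out. The replicate block gave 452 and 106. The deviations of same-numbered libraries had a correlation of 0.028 across genes, so the numbers were not taken as pairs, and the block changed no member's call. With the longest coding transcript as length, the summed survival levels were 105 CPM per kb in WT and 97.3 in Vil-CREPTKO, and the summed BH3-only levels 44.7 and 36.8.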
